A study of Mus musculus with 4 samples.

Results

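The genes described here are the interferon-induced IFIT family and the ISG15 conjugation system of mouse Ba/F3 cells, which were chosen by family name with earlier results of these same arrays in view, namely their differences between BCR-ABL cells and parental cells. Of the 8 listed genes, 7 had a probe set whose platform annotation gives exactly 1 symbol: Ifit1, Ifit2, Ifit3, Usp18, Ube2l6, Uba7 and Herc6. These 7 stand among 19935 genes compared in the series, and each was measured by 1 probe set. The only probe set annotated with Isg15 also carries Gm9706, a pseudogene, so its value cannot be assigned to either gene and is given apart. The differences from parental cells took part in choosing the genes, so they are given below as a description and without a test.

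The Ba/F3 line derives from mouse pro-B cells and depends on interleukin-3 (IL-3) for survival and growth, and BCR-ABL is the fusion kinase of chronic myeloid leukaemia. Parental Ba/F3 cells grown with IL-3 gave 1 Affymetrix Gene 1.0 ST array. Ba/F3 cells carrying a doxycycline-inducible BCR-ABL, kept in 500 ng/ml doxycycline, gave 2 arrays grown without IL-3, titled A and B, plus a single one grown with it. All cultures shared RPMI medium with foetal bovine serum and antibiotics and were harvested in logarithmic growth. The labels do not say whether the parental cells received doxycycline, whether the inducible line was 1 clone, or whether A and B were separate cultures, so any p-value below measures a spread between A and B that may be technical. BCR-ABL and the derived line changed together between parental and BCR-ABL cells, as did doxycycline if the parental cells had none. These cannot be told apart. Arrays A and B also differ from the parental array in IL-3, while the BCR-ABL array with IL-3 shares IL-3 with it. With whole cultures on arrays, a higher level in every cell and a change in few cells cannot be told apart either.

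Type I interferon binds a cell-surface receptor and activates JAK kinases, which lead to a transcription factor complex called ISGF3. The complex binds interferon-stimulated response elements (ISREs) in the promoters of antiviral genes. IFIT proteins are built of tetratricopeptide repeats and bind foreign or incompletely capped RNA, which blocks its translation. ISG15 is a ubiquitin-like protein that is attached to other proteins by its own enzyme cascade: UBA7 activates it (E1), UBE2L6 carries it (E2) and a HERC ligase, HERC6 in the mouse, transfers it to substrates (E3). USP18 removes ISG15 from its substrates and, separately, restrains signalling at the type I interferon receptor.

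Promoter stretches are shown for 4 genes whose start-site windows hold ISRE letters, since this is the element through which interferon signalling reaches the family. Each runs 5′ to 3′ on the gene's strand from base -200 to base -41 relative to the start site in RefSeq (GRCm38.p6). The letters GAAANNGAAA, on either strand, are in capitals, and all other bases are in lower case.
Ifit1, chr19:34640689-34640848, plus strand: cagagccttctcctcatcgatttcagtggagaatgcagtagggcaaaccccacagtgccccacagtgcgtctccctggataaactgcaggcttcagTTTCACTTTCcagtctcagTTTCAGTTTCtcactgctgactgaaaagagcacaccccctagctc
Ifit3, chr19:34583329-34583488, plus strand: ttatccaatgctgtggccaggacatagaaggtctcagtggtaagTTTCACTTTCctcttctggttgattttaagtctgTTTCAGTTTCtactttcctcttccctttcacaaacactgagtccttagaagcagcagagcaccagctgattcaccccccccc
Ifit3b, chr19:34607757-34607916, plus strand: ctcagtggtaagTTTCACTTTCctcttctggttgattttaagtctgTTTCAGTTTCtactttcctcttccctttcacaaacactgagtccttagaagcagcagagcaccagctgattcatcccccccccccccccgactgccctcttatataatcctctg
Isg15, chr4:156200859-156201018, minus strand: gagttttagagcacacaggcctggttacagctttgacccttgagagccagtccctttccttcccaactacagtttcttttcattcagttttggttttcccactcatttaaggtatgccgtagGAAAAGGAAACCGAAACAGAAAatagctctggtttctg

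The Ifit1 stretch holds 2 matches, whose first bases lie at -104 and -85, and the Ifit3 stretch holds 2, at -156 and -122. The Isg15 stretch holds 3 overlapping matches in tandem, at -78, -72 and -66. Ifit3b, a close paralogue of Ifit3, shares an identical stretch of 169 bases with it, which includes both matches. Over 32851 promoter windows of 300 bases in the RefSeq table, 3.44% held at least 1 match and 0.225% held 2 or more. No match lay in the windows of Ifit2, Ube2l6, Uba7 or Herc6, of which Ifit2 has 2 annotated start sites. This says only that these letters are not in those windows. For the gamma-activated site TTCNNNGAA, which reads the same on both strands, 8.3% of windows held a match. Among the listed genes with a window only Ifit2 did, with TTCCTGGAA at -241 of its first start site. Windows were used for 7 of the 8 listed genes, all but Usp18.

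Each value given is the log2 distance of a BCR-ABL array to the parental one, whose deposited entry is 0 for all 28815 probe sets, and absolute levels were not analysed here. The median over all genes was 0.0044 for array A, -0.0769 for B and 0.0085 with IL-3, so B sat slightly low. The SD over genes was 0.196 between A and B. It was 0.152 between the IL-3 array and A and 0.222 between the IL-3 array and B. By this measure the IL-3 array lay nearer to A than B did. The number of arrays limits the precision throughout.

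The IFIT genes differed in how far they lay above parental cells. Ifit1 stood at 3.18 for A, 2.98 for B and 3.33 with IL-3 (log2 differences), or 9.07-fold, 7.89-fold and 10.1-fold. Ifit3, of the same family, stood at 2.99, 2.84 and 3.53, or 7.96-fold, 7.16-fold and 11.5-fold. For both genes all 3 BCR-ABL arrays lay far above the parental array, and the IL-3 array was the highest. Ifit2, the remaining RNA-binding member, stood at 1.22, 1.09 and 1.28, or 2.33-fold, 2.12-fold and 2.43-fold. Its 3 arrays lay close together, each just over the 2-fold line. Of the 7, only the Ifit3 probe set showed a stored signal in the lower part of the scale (below 8, log2) on some array. For the other genes such a signal is not excluded, since the sign used can miss it. Probes of Ifit3 and its paralogue Ifit3b may not be fully separate.

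The ISG15-specific protease Usp18 lay highest of the 7. Its values were 3.79 for A, 3.68 for B and 3.83 with IL-3, or 13.8-fold, 12.8-fold and 14.2-fold over parental cells. Among 19935 genes its rank was 4 for A, 3 for B and 4 with IL-3. The 3 values span less than those of any other of the 7 genes.

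The 3 conjugating enzymes stayed much closer to the parental array. The activating enzyme gene Uba7 stood at -0.02 for A, -0.20 for B and 0.38 with IL-3. Both arrays without IL-3 were at or below the parental value and the array with IL-3 was above it. The carrier gene Ube2l6 stood at 0.36, 0.21 and 0.48, or 1.28-fold, 1.16-fold and 1.40-fold. The ligase gene Herc6 stood at 0.23, 0.43 and 0.47, or 1.17-fold, 1.35-fold and 1.38-fold. Both lay above the parental array on all 3 BCR-ABL arrays by less than 1.5-fold. The probe set shared by Isg15 and Gm9706 stood at 0.47, 0.30 and 0.51, or 1.39-fold, 1.23-fold and 1.42-fold, less than 1.5-fold on each array. Like that of Ifit3, it showed a stored signal in the lower part of the scale on some array.

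**Figure D1:**
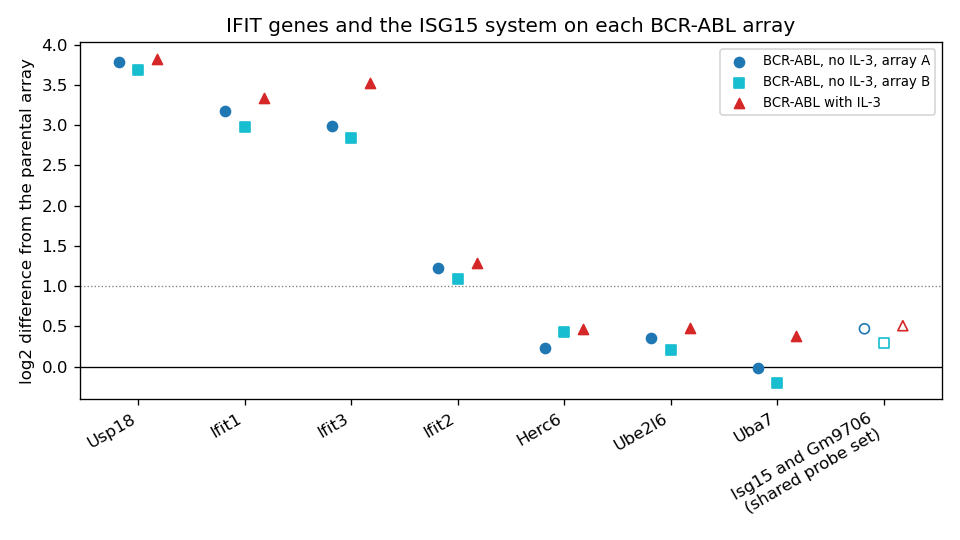
Log2 difference from the parental array (vertical axis) for each gene without IL-3 (arrays A, circles, and B, squares) and on the IL-3 array (triangles), with the dotted line at 2-fold and open symbols for the probe set shared by Isg15 and Gm9706. Usp18, Ifit1 and Ifit3 lie between 2.84 and 3.83, Ifit2 between 1.09 and 1.28, and Herc6, Ube2l6 and Uba7 between -0.20 and 0.48.

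By the mean of A and B the order was Usp18 (3.74), Ifit1 (3.08), Ifit3 (2.92), Ifit2 (1.15), Herc6 (0.33), Ube2l6 (0.28) and Uba7 (-0.11), as log2 differences from parental cells. The A and B values of Ifit1 and Ifit3 overlapped, and so did those of Herc6 and Ube2l6, so neither pair is ordered beyond its spread. The ranges of A and B did not overlap between other neighbours in the order. At least 2-fold above the parental array on both A and B were 4 of the 7 genes, where 0.903% of all genes were. On the IL-3 array 4 of 7 were at least 2-fold above it, where 1.1% of all genes were. These counts follow from how the genes were chosen and are given only as a description. The median of the 7 was 1.15 without IL-3, where the median of all genes was -0.04, and 1.28 with IL-3, where that of all genes was 0.01.

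Adding IL-3 to BCR-ABL cells asked what the growth factor changes while the kinase is on. This comparison shares arrays A and B with the differences that took part in choosing the genes. The IL-3 array lay above both A and B for all 7 genes, where it did so for 39.9% of all genes. With every array shifted so that its median over genes was 0, this held for 6 of the 7, with Herc6 the exception, and for 30.6% of all genes. The median of the 7 differences was 0.20, where that of all genes was 0.03.

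None of the 7 genes passed the test between BCR-ABL cells with and without IL-3 (limma, Benjamini-Hochberg over all genes, adjusted p under 0.05). That is 0 of 7, where 1 of 19935 genes, or 0.00502%, passed. At an unadjusted p under 0.05 there were 2 of the 7 and 901 of all genes. Ifit3 had the widest difference, at 0.54 above A and 0.69 above B. Its limma estimate was 0.61 (log2, SE 0.16, 95% interval 0.28 to 0.94, adjusted p = 0.448, with n = 1 against 2), or 1.53-fold. Uba7 lay 0.40 above A and 0.59 above B, with an estimate of 0.50 (SE 0.16, interval 0.16 to 0.83, adjusted p = 0.716 by limma), or 1.41-fold. These are the 2 genes with the smallest unadjusted p.

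The remaining 5 genes had intervals that include 0 and adjusted p-values of 1 by limma. The estimate was 0.25 for Ifit1 (interval -0.08 to 0.59), 0.13 for Ifit2 (-0.20 to 0.46) and 0.09 for Usp18 (-0.23 to 0.42). It was 0.20 for Ube2l6 (-0.13 to 0.52) and 0.14 for Herc6 (-0.19 to 0.47). The upper bounds leave room for increases of up to about 0.59 on the log2 scale, so similar levels are not shown. The lone IL-3 array is assumed to vary like A and B.

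**Figure D2:**
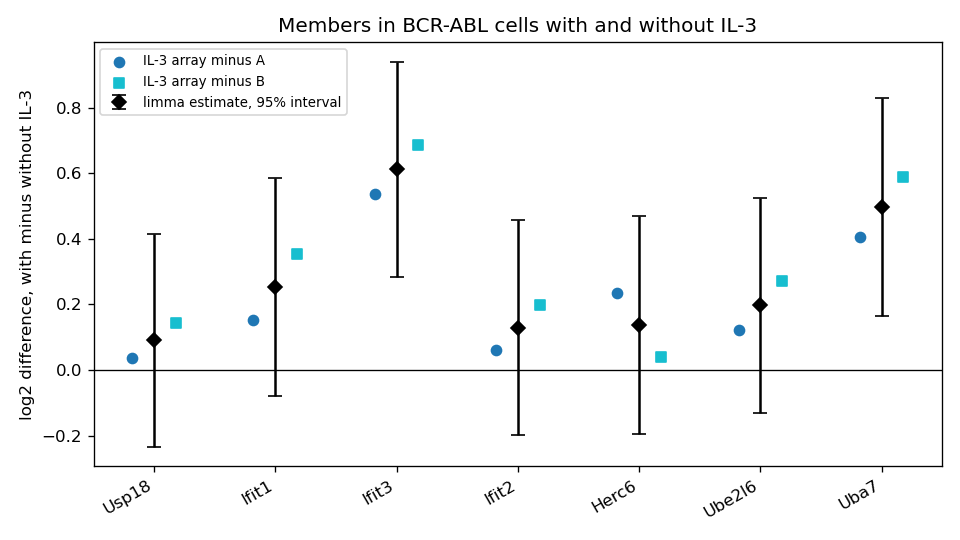
Log2 difference of the IL-3 array from A (circles) and from B (squares) for each gene, with the limma estimate and its 95% interval (diamonds and bars). Every difference lies above 0, and the intervals of Ifit3 and Uba7 leave out 0 before adjustment over all genes.

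The IFIT genes lie in 1 cluster, and its other members and neighbours were read from the same arrays. In the order of the RefSeq gene table the cluster runs Ifit2, Ifit3, Ifit1bl1, Ifit3b, Ifit1bl2 and Ifit1, and 5 of these 6 were measured here, all but Ifit1bl1. Ifit3b stood at 0.60 on array A, 0.43 on array B and 0.63 with IL-3, and was not called without IL-3 against parental cells (limma estimate 0.51, SE 0.16, adjusted p = 0.0532). Ifit1bl2 stood at 0.22, 0.21 and 0.33 and was not called (adjusted p = 0.655 by limma). Both lay above the parental array on every BCR-ABL array, well below Ifit1 and Ifit3. Both were measured only by probe sets with a stored signal in the lower part of the scale. The promoter windows of Ifit1 and Ifit1bl2 lie on opposite strands and share 245 bases, so the 2 ISRE matches of Ifit1 are also those of Ifit1bl2. Of the 8 protein-coding genes beside the cluster, 4 on each side, 0 were called (limma, lowest adjusted p = 0.0915), near the share over all genes, of which 5.19% were called higher and 2.87% lower. Their mean differences without IL-3 ran from -0.47 for Pank1, a pantothenate kinase gene, to 0.03 for Ch25h, which encodes cholesterol 25-hydroxylase.

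**Figure D3:**
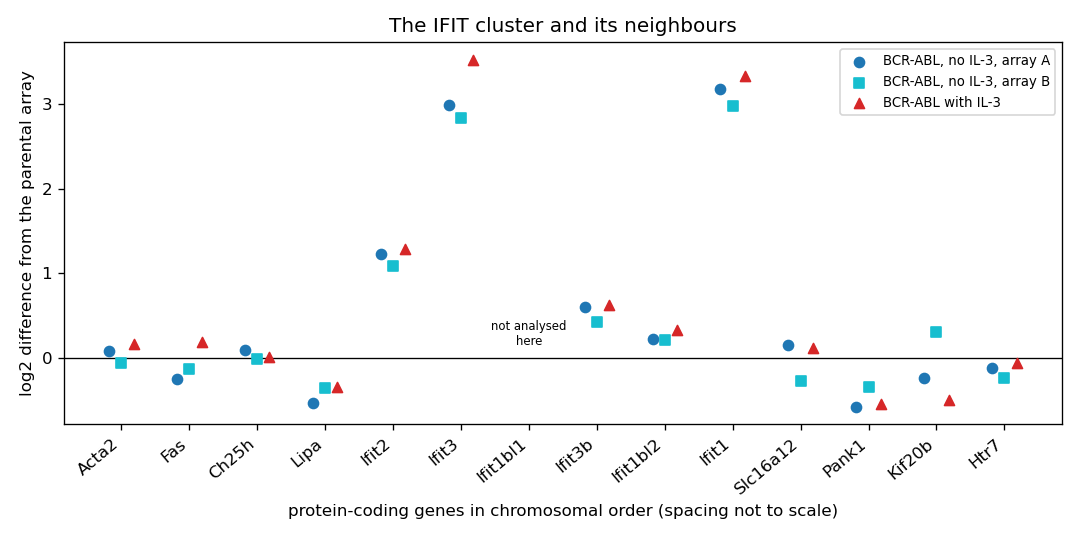
Log2 difference from the parental array (vertical axis) on each BCR-ABL array for the IFIT genes and 4 protein-coding genes on each side, in chromosomal order with spacing not to scale. Ifit3 and Ifit1 lie at 2.84 or higher on each BCR-ABL array, while the neighbours outside the cluster lie between -0.59 and 0.30.

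Other genes of the pathway were compared between BCR-ABL cells without IL-3 and parental cells by limma over all genes, where 5.19% of genes were called higher and 2.87% lower. The lone parental array is assumed to vary like A and B, whose difference is the only spread in the fit. Part of these genes were known to differ on these arrays when the lists were made, so the counts and p-values are no independent support. Of 16 measured interferon ligand genes 0 were called higher and 1 lower, with a median of -0.03. Only 7 of the 16 were left without probe sets that showed a stored signal in the lower part of the scale. Whether the ligand genes are expressed was not analysed, so a lack of calls does not show that they did not change. Ifnb1 stood at 0.02 on array A, -0.07 on array B and 0.13 with IL-3, and Ifna4 at 0.09, 0.10 and 0.14. Both lay near the parental value on all arrays. The called ligand gene was Ifnz, an interferon zeta gene, which fell by 1.01 (log2, SE 0.16, adjusted p = 4.25e-04).

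Of 11 genes for interferon receptors, their kinases and ISGF3, 1 was called higher and 1 lower, with a median of -0.05. Irf9, the DNA-binding subunit of ISGF3, stood at 0.87 on array A, 0.55 on array B and 0.92 with IL-3 (limma estimate without IL-3 0.71, SE 0.17, adjusted p = 0.0105). Ifngr1, a chain of the interferon-gamma receptor, fell by 1.11 (SE 0.16, adjusted p = 1.39e-04). The type I receptor chains Ifnar1 and Ifnar2 were not called, at 0.04 and 0.02.

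Of 17 genes that sense foreign nucleic acid or relay that signal, 6 were called higher and 0 lower, with a median of 0.30. Irf7, the transcription factor that amplifies the type I response, rose 4.31-fold (log2 2.11, SE 0.16, adjusted p = 7.86e-08 by limma). The nucleic acid sensor Zbp1 rose 4.30-fold, the RIG-I regulator Dhx58 2.92-fold and the adaptor Sting1 2.56-fold. All 4 were at least 2-fold above the parental array on A and on B.

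Among 23 other genes induced by type I interferon, 18 were called higher and 0 lower, with a median of 0.95. Oasl2 and Rsad2, both antiviral effectors, rose by 2.27 and 1.86 (log2). The highest of the 23 was Oasl2, which lay nearer to the parental array than Usp18, Ifit1 and Ifit3 did. Among 16 genes that lean towards interferon-gamma, 9 were called higher and 0 lower, with a median of 0.70, such as the chemokine gene Cxcl10 at 1.74. The others, Irf1, Ciita, Cxcl9, Ido1, Tap1, Psmb8 and Psmb9, were not called and ran from -0.38 for Tap1 to 0.06 for Ido1. For Socs1, a feedback inhibitor of JAK kinases that STAT5 also drives, the estimate was 1.79.

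The machinery that resembles the ISG15 cascade was compared as well. Of 10 other enzymes and partners of ISG15, 0 were called either way, with a median of 0.20, where the median of all genes was -0.04. At an adjusted p under 0.1, 2 of the 10 were called higher, but the share of all genes at that line was not counted. Trim25, also known as a ligase for ISG15, stood at 0.36 on array A, 0.24 on array B and 0.45 with IL-3 and was not called. Of 8 measured counterparts in the ubiquitin and NEDD8 systems, 0 were called higher and 1 lower, with a median of 0.14. The called gene was Herc1, a giant relative of Herc6, which fell by 1.04 (SE 0.15, adjusted p = 2.07e-04 by limma). Ube2l3, the ubiquitin carrier closest to Ube2l6, stood at 0.18 on array A, 0.19 on array B and -0.05 with IL-3 and was not called. Whether the ISG15 enzymes differ from these counterparts was not tested.

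**Figure D4:**
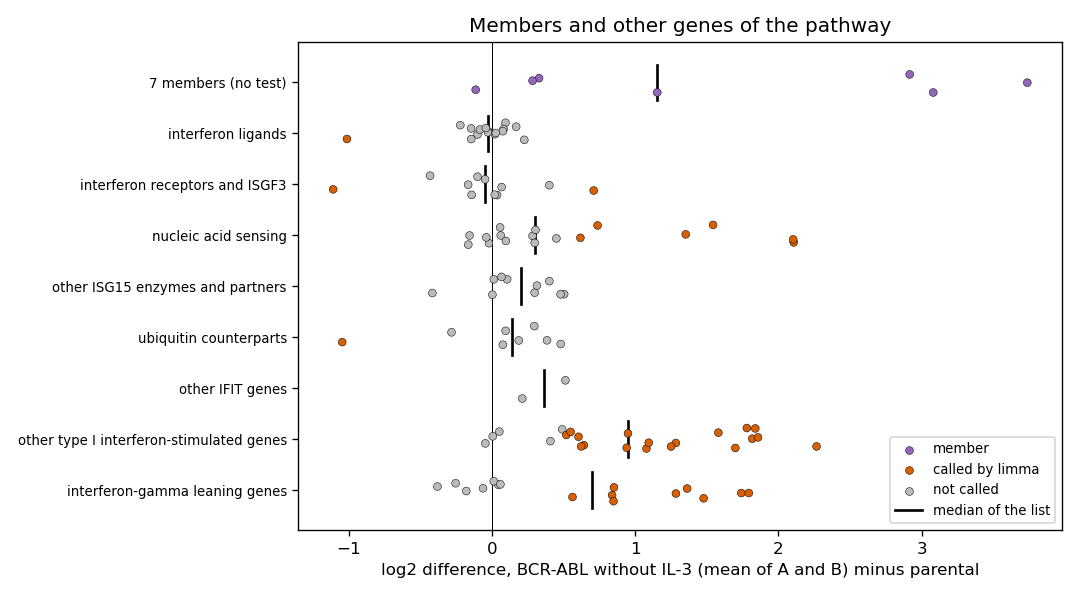
Log2 difference of BCR-ABL cells without IL-3 (mean of A and B) from parental cells for the 7 genes, shown without a test, and for 8 lists of related genes, each point a gene and each black bar the list's median. Orange points were called by limma, as were 18 of 23 other type I interferon-stimulated genes and 0 of 10 other ISG15 enzymes and partners.

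The same promoter letters were counted over the other genes measured. Of 15555 genes with a window, the 7 left out, 134 were at least 2-fold above the parental array on both A and B, or 0.861%. This held for 14 of 603 genes with at least 1 ISRE match (2.32%). With 2 or more it held for 2 of 39 (5.13%), which were Socs1 and Irgm1. With the letters of the gamma-activated site it held for 23 of 1401 (1.64%). The median difference was -0.02 for genes with an ISRE match and -0.04 for all with a window. These shares are a description of the windows and were not tested.

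By distance over the 3 BCR-ABL arrays, the genes nearest to the median profile of the 7 (1.22, 1.09 and 1.28) were Sdf2l1, Hyou1, Paxbp1, Slc35b1 and Dcun1d3, at 0.05, 0.11, 0.14, 0.16 and 0.17 log2 units. That profile equals the values of Ifit2. Taken singly, Ifit3 was nearest to Ifit1 (0.31), while Ifit1 was nearest to the cytokine gene Il13 (0.26) and Usp18 to the chemokine gene Ccl3 (0.48). Ube2l6 was nearest to Iqsec2, Uba7 to Klf6 and Herc6 to Derl2, at 0.05, 0.05 and 0.03. Among values near 0 many genes lie close, so a small distance there singles out little.

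Markers of cell types were read beside these values. Of 12 measured pro-B cell markers 0 were called either way, with a median of -0.11, and whether they are present was not analysed, since only differences are known. Of 9 macrophage and monocyte markers 3 were called higher and 1 lower, with a median of 0.12. The higher ones were the Fc receptor gene Fcgr1 (2.50), Adgre1 (1.74) and Cd68 (1.17), and the lower one was Ccr2 (-1.03). The remaining 5, Lyz2, Csf1r, Cd14, Mrc1 and Itgam, lay between -0.19 and 0.20 and were not called. The summed log2 differences of the 9 were 5.22 on array A, 3.59 on array B and 5.16 with IL-3. Of 10 dendritic cell markers Bst2, itself induced by interferon, was called higher (0.94), and Siglech, Flt3 and Itgax lay between -0.13 and 0.02. Of 8 T and NK cell markers 0 were called. The part of other cell types in the values of the 7 genes was not tested.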

How the data were processed

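RNA of 4 Ba/F3 samples was hybridised to Affymetrix Gene 1.0 ST arrays, per the labels' protocols. The deposited log2 values were read as distances to the parental array, since its own column is 0 throughout. Background correction, normalization, summarisation and the log base are not given in the sources used here. Base 2 was assumed, and every fold value rests on it. Of the values, 99.6% are multiples of 2 raised to -21, the spacing of stored numbers between 4 and 8. This spacing speaks to the range of the stored numbers and not to the log base. An odd multiple shows a stored number below 8 on some array, and such probe sets are called dim. Even multiples do not show that all stored numbers are 8 or higher, so dim probe sets can be missed.

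Probe sets were named by the platform annotation: 21780 had 1 symbol, 1605 several and 5430 were not listed. Probe sets of a gene were averaged. All 4 arrays were fitted with limma 3.58.1 (R 4.3.3) over 19935 genes with 3 group means, two-sided, Benjamini-Hochberg adjusted at 0.05, and tested on simulated data. The only residual degree of freedom is A against B. Genes named are the listed genes, up to 4 per pathway list (called first, then list order), defining markers and nearest genes. Predicted genes, olfactory receptors and small RNAs were left out of the search for nearest genes. The IFIT neighbours, Irgm1, marker genes with calls and the interferon-gamma leaning genes without a call were added after values were seen. The genes and lists were chosen with earlier results of these data known. Promoter windows come from RefSeq (GRCm38.p6). Protein sequences were not used here.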

Additional observations from a re-analysis of the deposited data

Results flagged for a closer look

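Uba7 lay below the parental array on both arrays without IL-3 (-0.02 and -0.20) and above it on the array with IL-3 (0.38), a difference of 0.50 that did not pass limma's test (adjusted p = 0.716). Ifna2 had the same pattern of sides, with -0.03, -0.17 and 0.20 and a difference of 0.30 (adjusted p = 1 by limma). Ube2l3 had the opposite one, with 0.18, 0.19 and -0.05 and a difference of -0.24 (adjusted p = 1 by limma).

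The probe set that Isg15 shares with Gm9706 is not counted among the 7 genes and entered only the setting that adds probe sets of several symbols. Its mean over A and B was 0.38 above the parental array.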

How the results depend on the processing

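Counts of the listed genes at least 2-fold above the parental array were 4 without and 4 with IL-3 under centring each array on its median, the median of probe sets, probe sets of several symbols and a 1.5-fold line, and 3 without dim probe sets, which leaves out Ifit3. With A or B alone the count without IL-3 was 4. The median of probe sets could not change these counts, since each of the 7 genes has 1 probe set. Adding probe sets of several symbols could change them only through the one shared by Isg15 and Gm9706. Under each of 7 other settings the number called between BCR-ABL cells with and without IL-3 was 0. One of them, leaving the parental array out of the fit, could not change this test, since that array adds no residual degree of freedom. The median of probe sets left the estimate of each listed gene as it was. The adjusted p ran from 0.448 to 0.999 for Ifit3 and from 0.716 to 0.999 for Uba7. Calls on the pathway lists were 37 of 103 measured genes, where 5.19% of all genes were called higher and 2.87% lower. They ran from 33 without dim probe sets to 42 at an adjusted p under 0.1, where the share of all genes was not counted. Centring lowered the calls of other type I interferon-stimulated genes from 18 to 16. Over all genes it lowered those against parental cells from 1035 to 637 higher and from 572 to 299 lower. With A or B alone no residual degree of freedom is left, so values without a test were given. Ifit1, Ifit2, Ifit3 and Usp18 kept their sign in every setting that measured them.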
